A study of Mus musculus with 10 samples.

Results

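The 10 genes described here are imprinted in the mouse: Dlk1, Peg3, Nnat, Ndn, Snrpn, Ube3a, Grb10, Plagl1, Asb4 and Impact. They were taken by symbol from a list, and all 10 were found among the 24837 genes of the deposited table. The table comes from single-nucleus RNA sequencing of unstimulated hippocampus. The mice were of strain C57B/6J, wild type and between 4 and 7 months old. Frozen tissue gave nuclei that were sorted after 7AAD staining, and about 5000 per sample were loaded on a droplet instrument that reads the 3′ ends of RNAs. The labels list 10 samples in this single group, some of them titled as controls of another mouse line (RNASET2). The 15661 barcodes of the table carry suffixes 1 to 7, called barcode sets below, which match no sample label. All barcodes were therefore treated as 1 sample, and differences between nuclei carry counting error but no replicate error.

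Genomic imprinting silences one parental copy of a gene through methylation of CpG sites that is set in the egg or the sperm. Imprinted genes sit in clusters, and many act in fetal growth, in the placenta and in brain circuits for feeding, social and maternal behaviour. Some are imprinted in only part of the body: in mature neurons Ube3a RNA comes from the maternal copy, whereas most other cells use both, and Grb10 uses the maternal copy in most tissues but the paternal copy in neurons. The counts used here do not separate the parental copies, so they give total RNA only. Each captured RNA molecule carries a unique molecular identifier (UMI). Levels are given as CPM, a gene's UMIs per 1e+06 UMIs of the same nuclei, so they are shares of captured RNA.

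In GRCm38 the 3 genes of the Prader-Willi and Angelman cluster lie on chromosome 7: Ube3a at chr7:59228750-59311536 on the plus strand, Snrpn at chr7:59982495-60140219 on the minus strand and Ndn at chr7:62346569-62350262 on the plus strand. Peg3 lies elsewhere on chromosome 7, at chr7:6703892-6730431 on the minus strand, head to head with the imprinted gene Usp29. Nnat (chr2:157560078-157562522, plus strand) lies inside Blcap, an imprinted gene on the opposite strand. Asb4 is at chr6:5383386-5433022, Plagl1 at chr10:13060504-13131694 and Dlk1 at chr12:109452823-109463336, all on the plus strand. Grb10 is at chr11:11930508-12038683 on the minus strand.

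RefSeq promoter windows of 300 bases (250 before to 50 after each start, GRCm38.p6) were at hand for 9 members, 14 windows in all. The palindrome CGCATGCG, the core of the binding motif of the transcription factor NRF1, stood in 6 of these 14 windows, those of Nnat, Ndn and all 4 Snrpn starts. Of the 32851 RefSeq windows compared, which leave out the chromosome of Impact, 1.87% held it, on either strand since the motif is its own reverse complement. Counted by gene, 3 of the 9 members held it, beside 2.07% of the gene symbols compared. Snrpn starts 1 to 3 have similar letters around the motif, so their windows are not separate cases. The motif was chosen after the sequences had been seen, and a match is no evidence of binding. The 30 bases around each match are shown because the same letters recur near the starts of 3 members in 2 imprinted clusters, with the motif in capitals. They are read 5′ to 3′ on the gene's own strand, at chr2:157560042-157560071 for Nnat (plus), chr7:60450222-60450251, chr7:60140285-60140314, chr7:60048031-60048060 and chr7:60005150-60005179 for Snrpn (minus), and chr7:62348243-62348272 for Ndn (plus).
Nnat: tcccccaagcgCGCATGCGcacttaggtgg
Snrpn, start 1: gcaaacatccaCGCATGCGtgattggaagg
Snrpn, start 2: gcaaacatccaCGCATGCGtgatgggaggg
Snrpn, start 3: gcaaacatgcaCGCATGCGtcgttgaaggt
Snrpn, start 4: cagccattgcctgggaCGCATGCGtaggga
Ndn: gcttcccaacaCGCATGCGcaatatcgcat
Relative to the RefSeq start the first base of the motif stood at -25 for Nnat, at -63, -78, -71 and 37 for the 4 Snrpn starts in that order, and at -23 for Ndn. The Ndn match lies in an exon of a longer annotated Ndn transcript.

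Peg3 and Usp29 are transcribed away from each other, and 146 bases separate their annotated exons at chr7:6730432-6730577. That stretch is shown because both genes start beside it. It is written on the minus strand, the strand of Peg3, with its 5 CpG sites in capitals.
Peg3 and Usp29: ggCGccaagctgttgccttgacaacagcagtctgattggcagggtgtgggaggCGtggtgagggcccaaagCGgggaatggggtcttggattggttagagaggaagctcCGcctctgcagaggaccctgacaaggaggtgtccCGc
CpG sites, the substrate of imprinting marks, were unevenly spread over the member windows. The Grb10 window at chr11:12037371-12037670 held 45 CpG sites, a number reached by 1.93% of the windows compared. The other Grb10 window held 9, a number reached by 45.8%. The Ube3a window held 29, the Plagl1 window 26 and the Nnat window 17, against a median of 7 over the windows compared. The Peg3 window held 13, the Ndn window 11, the Dlk1 window 9 and the Asb4 windows 6 and 8. The Snrpn windows held 2, 3, 4 and 7.

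Barcodes needed 500 UMIs, 300 genes and a mitochondrial share below 5%. After removal of 333 called doublets, 15220 nuclei with 97718801 UMIs remained. The median depth per barcode was 5477 to 8176 UMIs in sets 1 to 4 and 1012 to 2822 in sets 5 to 7. Between sets, 21 barcodes were shared. In sets 2 and 5 the doublet caller marked 0.212% and 0.495% of barcodes, too few to count as a working call. Nuclei were clustered without the members, and clusters were named from marker genes, so each class name below means nuclei like that type. Of 19 classes, 15 were neuronal, and 749 nuclei (4.92%) stayed unnamed. Cluster 4, a class of 773 neurons that met no hippocampal marker set, came almost wholly from set 1 (689 nuclei). Of 10 marker genes of hypothalamic neurons 9 had their highest level in cluster 4, the exception being Agrp, and the 10 summed to 464 CPM there with none at 0. Of 5 thalamic markers 2 were highest in cluster 4 (summed 1206 CPM), of 5 septal markers 2 (172 CPM), of 4 medial habenular markers 3 (23.1 CPM) and of 6 striatal markers none (84.1 CPM). Rora gave 1135 of the thalamic sum and was higher in astrocytes, at 6606. Gbx2, a thalamic marker highest in cluster 4, had 4 UMIs there. The septal markers Zic1, Zic4 and Trpc4 were highest in cluster 17, a class of inhibitory neurons, at 190, 135 and 827. No region is assigned to cluster 4 or cluster 17 here.

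The members covered a wide range of capture. Over the 15560 barcodes with at least 500 UMIs, Ube3a gave 147757 UMIs, which placed it at rank 72 among the 24837 genes, and 80.7% of barcodes held one. Peg3 gave 22783 UMIs, Nnat 14009, Snrpn 12412, Impact 10032 and Grb10 7418. Ndn gave 1852, Plagl1 1220 and Dlk1 562. Asb4 gave 121 UMIs, so its levels have wide intervals in most classes. These totals describe the precision behind each gene and were not compared between genes, because the captured length of each RNA is not known.

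**Figure D1:**
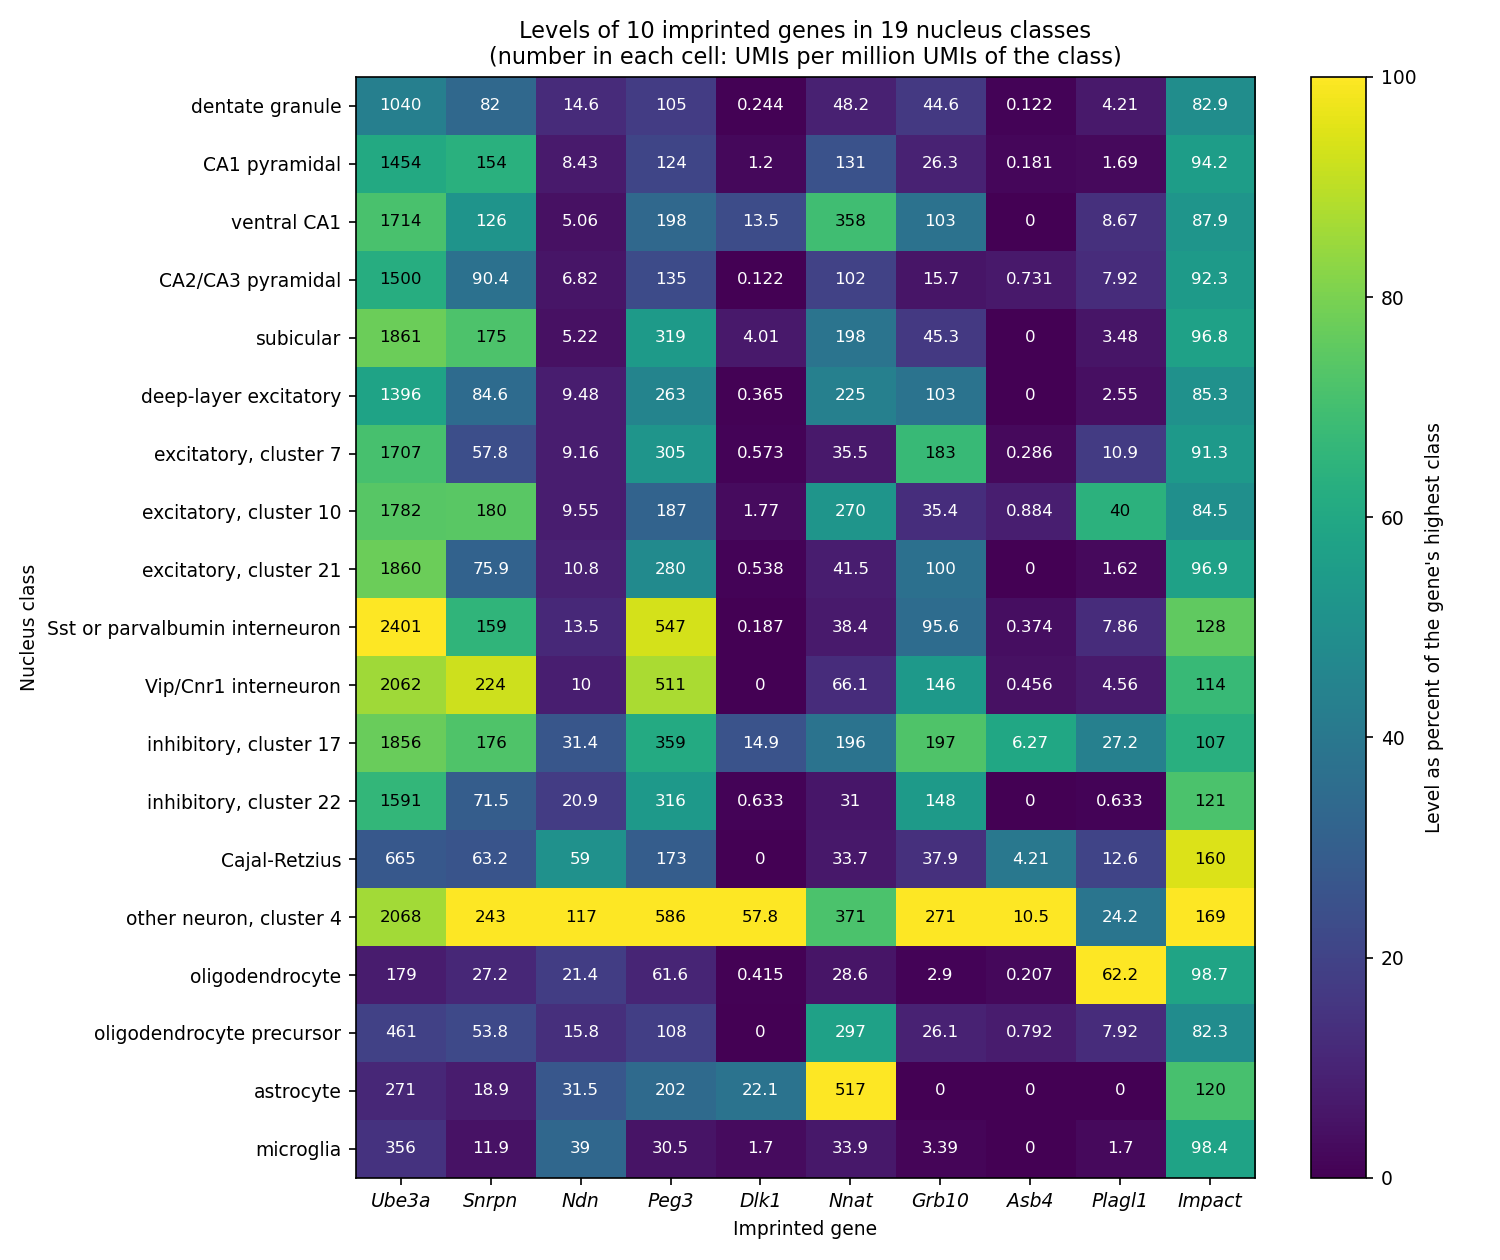
Levels of the 10 imprinted genes (columns) in 19 nucleus classes (rows); each cell prints CPM of the class, and the colour gives the level as a percent of the gene's highest class. With all sets pooled, cluster 4 holds the highest value of 7 genes. Ube3a is highest in the Sst or parvalbumin class (2401), Nnat in astrocytes (517) and Plagl1 in oligodendrocytes (62.2). Most Nnat UMIs of astrocytes came from set 1.

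Ube3a encodes a ubiquitin ligase whose loss causes Angelman syndrome. Its level was highest in Sst or parvalbumin interneurons, at 2401 CPM (95% Poisson interval 2360 to 2443), followed by cluster 4 at 2068 and Vip/Cnr1 interneurons at 2062, whose intervals overlapped. Excitatory classes lay between 1861 in subicular and 1040 in dentate granule nuclei. All 15 neuronal classes but one were above 1000, the exception being Cajal-Retzius nuclei at 665 (566 to 778). The non-neuronal classes were the 4 lowest: oligodendrocyte precursors 461, microglia 356, astrocytes 271 and oligodendrocytes 179 (167 to 191). The intervals of microglia and astrocytes overlapped.

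Snrpn encodes a splicing protein, SmN, that replaces the common SmB in the brain. It was highest in cluster 4 at 243 CPM (230 to 256) and in Vip/Cnr1 interneurons at 224 (205 to 245), whose intervals overlapped. Excitatory cluster 10, inhibitory cluster 17 and subicular nuclei followed at 180, 176 and 175. The span within excitatory neurons was wide, from 180 in cluster 10 to 57.8 (50.1 to 66.4) in cluster 7, with dentate granule nuclei at 82.0. Non-neuronal classes had 53.8 in precursors, 27.2 in oligodendrocytes, 18.9 in astrocytes and 11.9 in microglia.

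Snrpn values are uncertain as a level of one gene, because the annotated gene model Gm38393 overlaps it on the same strand and counting can split their reads. Gm38393 gave 9151 UMIs and followed a similar order, with 138 CPM in cluster 4 and 101 in CA1 pyramidal nuclei against 23.8 in oligodendrocytes and 5.09 in microglia. Snurf, which shares its transcript with Snrpn, was listed at 0 UMIs. The 3′ end of Ube3a overlaps the noncoding gene Snhg14 on the opposite strand; Snhg14 is not analysed here. Whether counting used the strand is not given in the sources used here, so reads of the 2 overlapping strands may be mixed for Ube3a, and likewise for Nnat with Blcap.

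Ndn encodes necdin, a MAGE family protein of postmitotic neurons. Its class order differed from those of Ube3a and Snrpn. With all sets pooled, cluster 4 had 117 CPM (108 to 126), an interval above all other classes. Of its 690 Ndn UMIs 685 came from set 1. Within set 1 alone, cluster 4 had 128 CPM and microglia had 120. Pooled levels of the other classes follow. Cajal-Retzius nuclei had 59.0 (32.2 to 98.9), microglia 39.0 (24.7 to 58.5), astrocytes 31.5 (15.1 to 58.0) and inhibitory cluster 17 had 31.4. The pyramidal classes were the lowest: CA1 8.43, CA2/CA3 6.82, subicular 5.22 and ventral CA1 5.06 (3.13 to 7.73). Non-neuronal classes were thus above pyramidal neurons when all sets were pooled. In sets 2, 3 and 4 Ndn had 3.96, 23.4 and 6.23 CPM in oligodendrocytes and 4.19, 7.28 and 5.35 in CA1 pyramidal nuclei, so the order varied between these sets.

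Peg3 encodes a zinc finger protein expressed from the paternal copy. Cluster 4 had 586 CPM, Sst or parvalbumin interneurons 547 and Vip/Cnr1 interneurons 511 (482 to 542), and the intervals of neighbours in this order overlapped. Inhibitory cluster 17 followed at 359 and subicular nuclei led the excitatory classes at 319. Dentate granule nuclei had 105 and CA1 pyramidal nuclei 124. Oligodendrocytes at 61.6 and microglia at 30.5 were lowest, whereas astrocytes at 202 (155 to 258) overlapped ventral CA1 at 198.

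Dlk1 encodes a membrane protein of the Notch ligand family and is expressed from the paternal copy. It was concentrated in the nuclei of a single class and set. Cluster 4 held 341 of its 544 UMIs (62.7%) but 6.04% of all UMIs, at 57.8 CPM (51.8 to 64.3). Of these 341 UMIs 340 came from set 1, which gave 689 of the 773 nuclei of cluster 4. In cluster 4, 18.5% of nuclei (15.8 to 21.4, exact binomial 95% interval, median depth 6897 UMIs) held a Dlk1 UMI, against 0.165% of dentate granule nuclei, which had a median depth of 6320. With each nucleus thinned to 1000 UMIs the cluster 4 share was 5.61%.

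Outside cluster 4, Dlk1 was found in a few more places. Inhibitory cluster 17 had 14.9 CPM (11.3 to 19.3) and ventral CA1 had 13.5 (10.2 to 17.5), from 57 and 56 UMIs. Ventral CA1 was apart from the main CA1 class (interval 0.736 to 1.86) in each of the 4 sets in which both had at least 50 nuclei. Ventral CA1 had 12.5, 8.03, 18.1 and 46.5 in sets 2, 3, 5 and 6. The main CA1 class had at most 2.37 in any set. Subicular nuclei had 4.01. The 7 UMIs of Dlk1 in astrocytes all came from set 1.

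Asb4 encodes a substrate receptor of a ubiquitin ligase. It had 10.5 CPM (8.06 to 13.5) in cluster 4 and 6.27 (4.02 to 9.33) in inhibitory cluster 17, from 62 and 24 UMIs, and the intervals overlapped. No other class had more than 6 Asb4 UMIs, and 7 classes had none. Set 1 gave 61 of the 62 UMIs of cluster 4. In subicular nuclei a count of 0 allows up to 0.522 CPM (3 UMIs of the class total, counting error only).

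Grb10 encodes an adaptor that dampens signalling from the insulin and IGF1 receptors. It was highest in cluster 4 at 271 CPM (258 to 285), then in inhibitory cluster 17 at 197 and excitatory cluster 7 at 183, whose intervals overlapped. Among excitatory classes it spanned from 183 down to 26.3 in CA1 pyramidal and 15.7 (13.1 to 18.7) in CA2/CA3 pyramidal nuclei. Ventral CA1 at 103 (93.1 to 113) was apart from the main CA1 class here too. Oligodendrocytes had 2.90 (1.59 to 4.87) and microglia 3.39 on 2 UMIs, and astrocytes had no UMI, which allows up to 9.46. Precursors at 26.1, from 33 UMIs, were above oligodendrocytes.

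Nnat encodes neuronatin, a small membrane protein of the endoplasmic reticulum expressed from the paternal copy. With all sets pooled, its highest level was in a glial class: astrocytes had 517 CPM (441 to 603). Of their 164 Nnat UMIs 134 came from set 1, which held 69 of the 129 astrocytes. Within set 1 alone, astrocytes had 842 CPM. The other sets held too few astrocytes for a level per set, so the pooled astrocyte level rests mostly on the UMIs of set 1. Their rank without set 1 is not given here. Ventral CA1, at 358 pooled, held no nuclei of set 1. In the pooled levels cluster 4 had 371 and ventral CA1 358, with overlapping intervals, and oligodendrocyte precursors followed at 297 (268 to 328). Of the 2187 Nnat UMIs of cluster 4, 2133 came from set 1. Main CA1 had 131, CA2/CA3 102 and dentate granule nuclei 48.2. Oligodendrocytes were lowest at 28.6 (24.0 to 33.8), so precursors and mature oligodendrocytes differed in Nnat as they did in Grb10.

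Plagl1 encodes a zinc finger transcription factor that restrains cell growth and acts on other imprinted genes. It was the only member with its highest level in oligodendrocytes, at 62.2 CPM (55.4 to 69.6). Precursors had 7.92 (3.80 to 14.6). Among neurons, excitatory cluster 10 had 39.95 (34.9 to 45.5), inhibitory cluster 17 had 27.2 and cluster 4 had 24.2. All other neuronal classes were at 12.6 or below, and CA1 pyramidal nuclei had 1.69 (1.12 to 2.44). Astrocytes had no UMI, which allows up to 9.46. All 143 Plagl1 UMIs of cluster 4 came from set 1.

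Impact encodes an inhibitor of GCN2, the kinase that senses amino acid shortage, and is abundant in the brain. It was the most even member. Its levels ran from 169 CPM (159 to 180) in cluster 4 and 160 in Cajal-Retzius nuclei to 82.3 (67.3 to 99.7) in oligodendrocyte precursors. Oligodendrocytes had 98.7, microglia 98.4 and CA1 pyramidal nuclei 94.2, with overlapping intervals.

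Neurons and non-neuronal nuclei were compared first (11042 and 3429 nuclei). A gene was counted as different at a ratio of 2 or more with at least 100 UMIs over both sides. By this rule 6 of the 10 members were higher in neurons and 1 was lower, beside 19.4% of the 13732 genes compared on the higher side and 19.4% on the lower side. The median log2 ratio was 1.91 for the members and -0.17 for all genes compared. Grb10 was 11.4-fold higher in neurons (8.64 to 15.5), Ube3a 6.41-fold (6.12 to 6.73), Snrpn 4.46-fold (3.89 to 5.13), Dlk1 4.32-fold (2.33 to 9.05) and Peg3 3.28-fold (3.004 to 3.59). Asb4 had a ratio of 4.46 with an interval of 1.204 to 37.3, since non-neuronal nuclei held 2 UMIs. Plagl1 had a ratio of 0.213 (0.187 to 0.244).

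The other 3 members did not pass a factor of 2. Nnat had a ratio of 1.45 (1.34 to 1.57), Ndn 0.838 (0.711 to 0.994) and Impact 1.03 (0.955 to 1.12). Within each of the 5 sets with at least 50 nuclei on both sides, Ube3a, Peg3, Snrpn and Grb10 were higher in neurons and Plagl1 was lower. Ndn was lower in neurons in 4 of the 5 sets, and in set 5 it had 53 UMIs in neurons and 0 in non-neuronal nuclei. Dlk1 had UMIs on both sides in set 1 alone, where it was higher in neurons. In sets 2 to 5 it had 61, 22, 5 and 17 UMIs in neurons and 0 in non-neuronal nuclei. Asb4 had UMIs on both sides in sets 1 and 2 and was higher in neurons in both, with 0 non-neuronal UMIs in the other 3.

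Cluster 4 set much of the neuronal side for some members. With it left out, the members' median log2 ratio was 0.67, from 9 genes with enough UMIs. The number of members at least 2-fold higher in neurons was then 4: Grb10, Ube3a, Snrpn and Peg3, with log2 ratios of 3.23, 2.65, 2.07 and 1.55. Dlk1 was at 0.67 without it and Ndn at -0.99. The share of all genes past a factor of 2 was not counted without cluster 4.

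**Figure D2:**
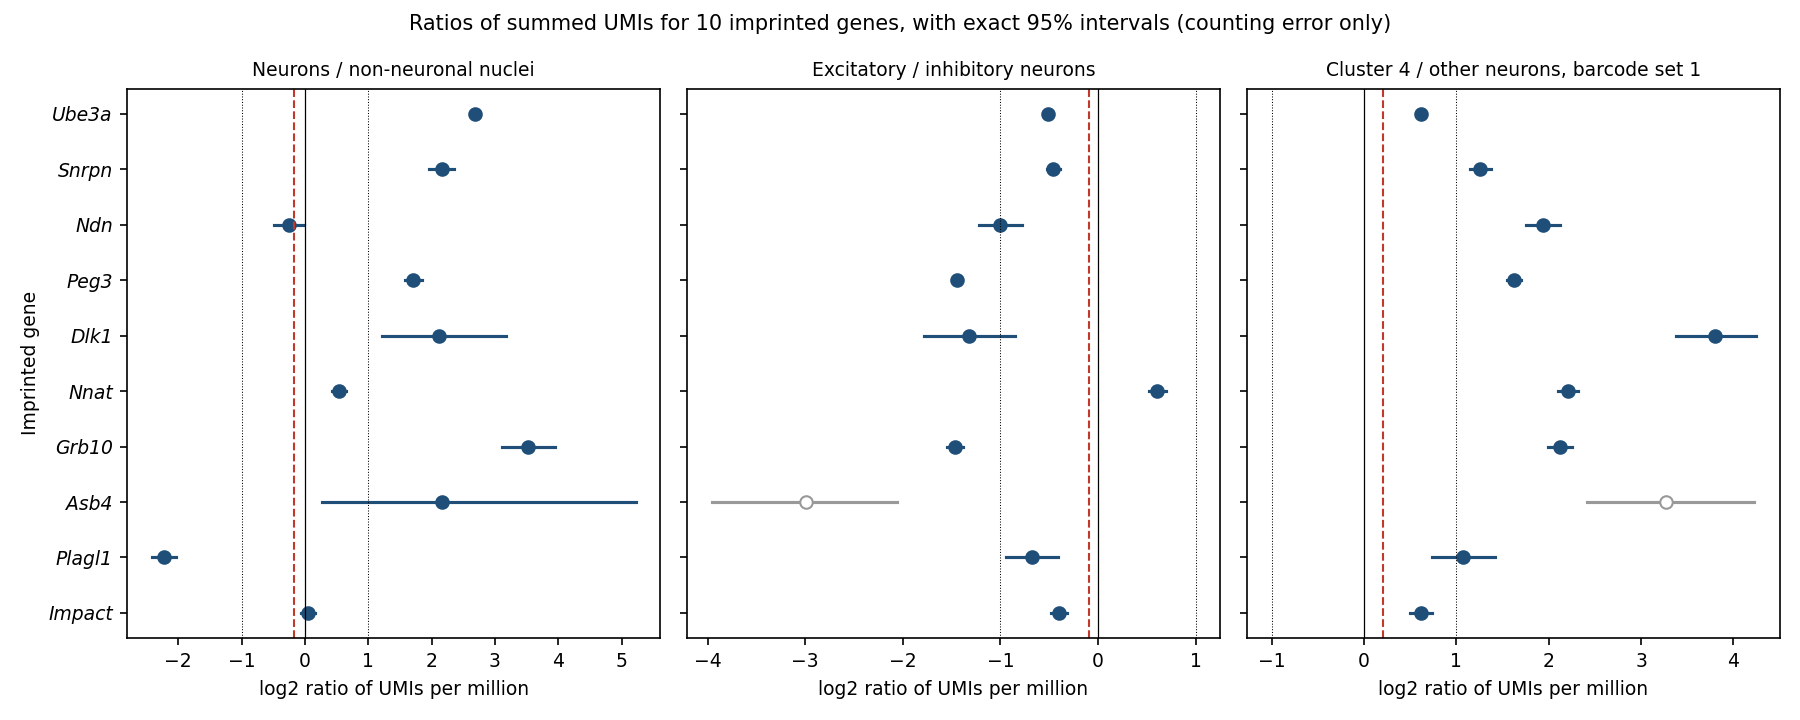
Log2 ratios of CPM for the 10 genes in 3 comparisons, with exact 95% intervals for counting error; dotted lines mark a factor of 2, the red dashed line is the median of all genes compared, and open grey points are genes with under 100 UMIs. In the left panel 6 genes lie above a factor of 2 and Plagl1 below it, in the middle panel Nnat alone lies above 0, and in the right panel all 10 lie above 0.

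Among neurons, 8452 excitatory and 1706 inhibitory nuclei were compared. None of the 9 members with enough UMIs was at least 2-fold higher in excitatory nuclei, where 7.05% of the 13112 genes compared were, and 4 of 9 were at least 2-fold lower, where 7.91% were. The 4 were Grb10 with an excitatory to inhibitory ratio of 0.361 (0.341 to 0.383), Peg3 0.367 (0.356 to 0.379), Dlk1 0.399 (0.290 to 0.555) and Ndn 0.499 (0.430 to 0.581). Inhibitory cluster 17 held 57 of the 59 inhibitory Dlk1 UMIs and 120 of the 247 inhibitory Ndn UMIs. The Sst or parvalbumin class and inhibitory cluster 22 had 1 Dlk1 UMI each, and Vip/Cnr1 interneurons had none. The median log2 ratio was -0.68 for the members and -0.10 for all genes. Ube3a at 0.700, Snrpn at 0.729, Impact at 0.757 and Plagl1 at 0.625 were below 1 by less than a factor of 2. Of the 157 inhibitory Plagl1 UMIs 104 were in inhibitory cluster 17. Plagl1 had 7.86 CPM in Sst or parvalbumin interneurons, 4.56 in Vip/Cnr1 interneurons and 0.633 in inhibitory cluster 22, against 7.59 in excitatory nuclei. Nnat, at 1.52 (1.43 to 1.62), was the one member above 1.

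Peg3, Grb10, Ube3a, Snrpn, Impact and Ndn were lower in excitatory nuclei in 6 of 6 sets. Peg3 had log2 ratios from -1.77 to -1.26 and Ube3a from -0.59 to -0.45 over these sets. Plagl1 was lower in 3 of 6, and Nnat was higher in 5 of 6. Dlk1 was lower in excitatory nuclei in sets 1 and 2 and higher in set 6. In sets 3, 4 and 5 it had 22, 5 and 17 UMIs in excitatory nuclei and 0 in inhibitory nuclei. Without set 1, which held 165 of the 388 nuclei of inhibitory cluster 17, 2 members remained at least 2-fold lower, Peg3 and Grb10 at log2 ratios of -1.40 and -1.30. Ndn was then at -0.61 and Dlk1 at 0.45, on the other side of 0. The share of all genes past a factor of 2 was not counted without set 1.

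Cluster 4 was then compared with the other neurons of its own set, set 1, which holds the set fixed but not the kind of neuron. Of these 1313 other neurons 1057 were excitatory. Of the 9 members with enough UMIs 7 were at least 2-fold higher in cluster 4, where 9.52% of the 10541 genes compared were, and none was at least 2-fold lower, where 6.51% were. Dlk1 was 13.9-fold higher (10.4 to 18.9), at 63.8 against 4.59 CPM. Nnat was 4.64-fold higher (4.30 to 5.001), Grb10 4.35-fold (3.98 to 4.76), Ndn 3.83-fold (3.38 to 4.35) and Peg3 3.09-fold (2.93 to 3.26). Snrpn was 2.40-fold higher and Plagl1 2.11-fold (1.66 to 2.67). Impact and Ube3a were 1.54-fold and 1.53-fold higher. Asb4, with 75 UMIs in all left out of the count, had 11.4 against 1.19 CPM. Against inhibitory cluster 17 of set 1 alone, the differences were smaller. Cluster 4 had 278 CPM of Grb10 against 220 there, 601 of Peg3 against 400 and 128 of Ndn against 68.9. Plagl1 was lower in cluster 4 than in cluster 17, at 26.8 against 51.2, and the other members were higher.

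The members' median log2 ratio in this comparison was 1.63, against 0.20 for all genes compared. In the 19 classes, 7 of 10 members (70%) had their highest level in cluster 4. The shares were 11 of 28 other imprinted genes (39.3%) and 9.32% of all 13908 genes. Members and lists were chosen with earlier results of these data known, so these shares are a description only. Without set 1 only 2 members were highest in cluster 4, where the share of all genes was not counted. Markers of hypothalamic neurons moved with these levels: 7 of the 8 with enough UMIs were at least 2-fold higher in cluster 4 within set 1. Their part in the members' levels was not tested.

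Cluster 4 was not uniform. Clustered again, it split into 15 groups of 8 to 137 nuclei. Dlk1 had 309 CPM in group 10 (led by Prr5l and Rorb, 40 nuclei) and 142 in group 5, but 4.05 in group 7 (led by Sox6, 47 nuclei) and no UMI in groups 11, 12 and 13. Nnat was highest in group 5 at 1029, with 762 in group 13, 724 in group 8 and 719 in group 10, and had 27.9 in group 11. Group 5 was led by mitochondrial genes, whose part in its levels was not tested, and was also the group highest in Asb4 (38.4) and Plagl1 (82.8).

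Ndn, Peg3 and Grb10 were spread more widely over these groups. Peg3 had 978 CPM in group 11 (led by Myo5b, 32 nuclei) and 485 to 694 in groups 1 to 7. Ndn had 208 in group 10, 208 in group 14 (10 nuclei), 201 in group 5 and 4.85 in group 12, all of whose 23 nuclei came from other sets than set 1. Grb10 lay between 156 and 382 in groups 1 to 12. Group 15, the 8 nuclei led by Oxt and Avp, had 178 for Ndn and 535 for Snrpn. Groups 13 and 14, of 14 and 10 nuclei, had the lowest Ube3a (664 and 536) and the lowest Peg3 (58.6 and 119), and group 13 had no Grb10 UMI.

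**Figure D3:**
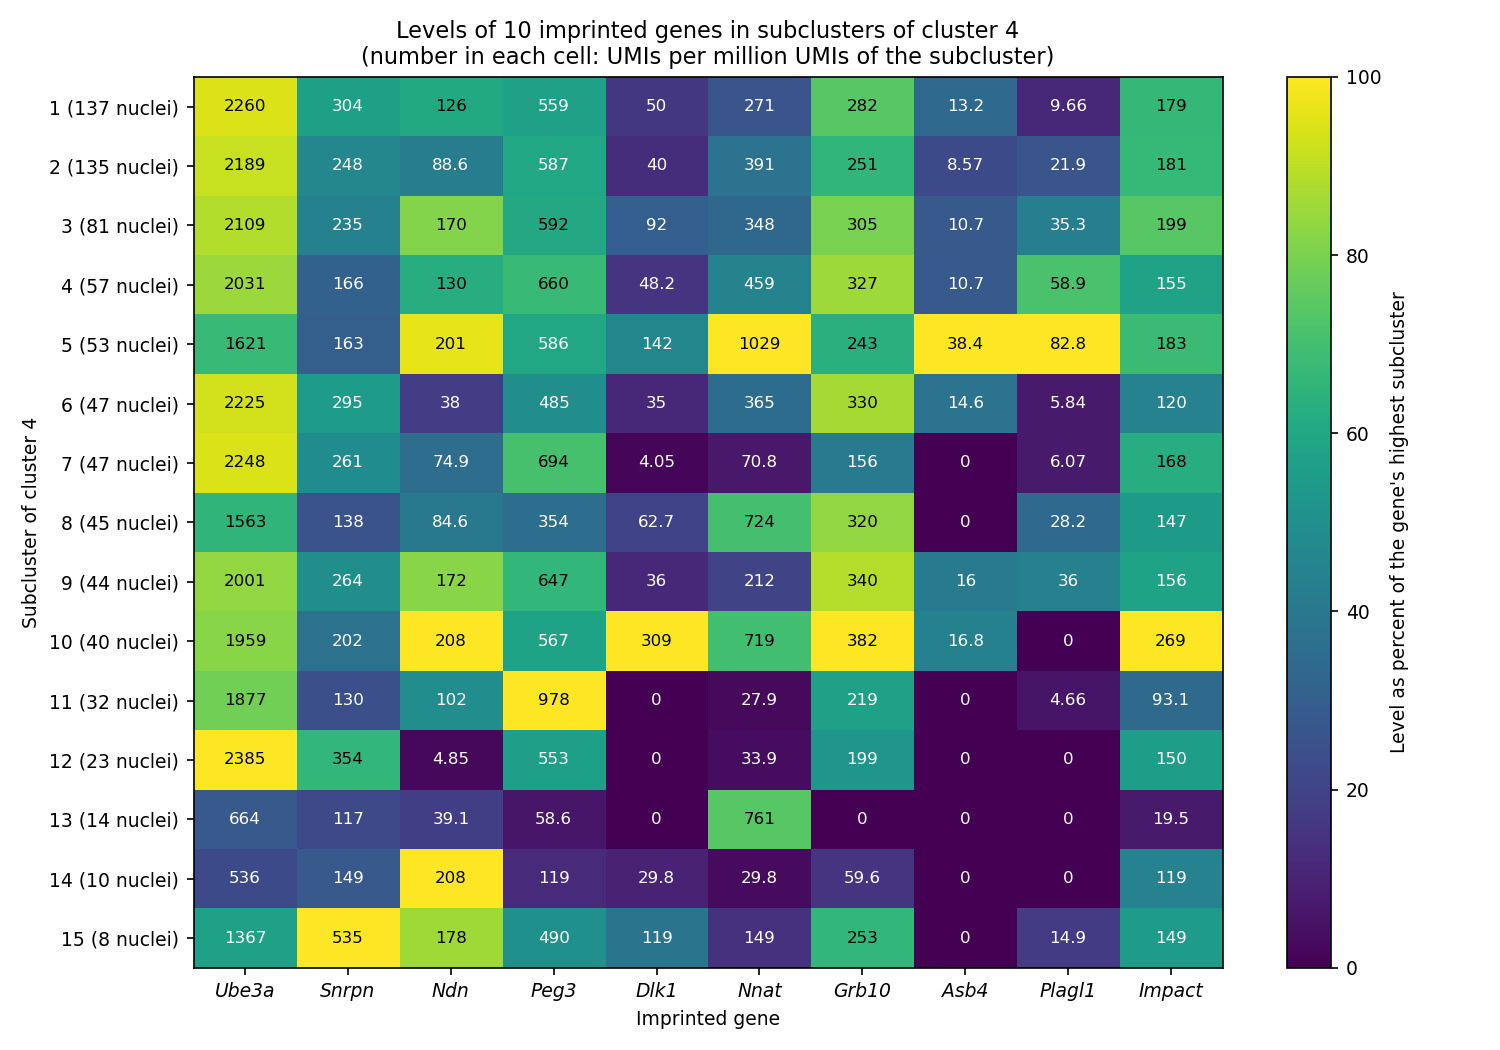
Levels of the 10 imprinted genes (columns) in the 15 groups within cluster 4 (rows, with their nuclei); each cell prints CPM and the colour gives the percent of the gene's highest group. Dlk1 reaches 309 in group 10 and has no UMI in groups 11, 12 and 13, while Ube3a is above 1500 in groups 1 to 12.

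The same classes were then followed across barcode sets, wherever a class had at least 50 nuclei in a set. Ube3a was steady: in dentate granule nuclei it lay between 967 and 1112 CPM in 6 sets, in CA1 pyramidal nuclei between 1305 and 1617, and in oligodendrocytes between 141 and 196. Peg3 in CA1 lay between 118 and 131 over 6 sets. Grb10 in dentate granule nuclei lay between 33.4 and 52.6, and Impact between 68.0 and 125. Nnat and Ndn varied more between sets.

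Nnat was higher in sets 5 and 6 than in sets 1 to 4 in most neuronal classes. In CA1 pyramidal nuclei it had 37.0, 122, 92.2 and 86.8 CPM in sets 1 to 4, and 259 and 285 in sets 5 and 6. In ventral CA1 it had 231 and 247 in sets 2 and 3, 684 in set 5 and 1590 (1426 to 1768) in set 6. In 9 of the 13 classes with both kinds of set, all values of sets 5 and 6 lay above all values of sets 1 to 4; in 3 they overlapped, and in inhibitory cluster 22 they lay below, 24.5 against 27.3. Oligodendrocytes overlapped, with 31.2 in set 5 and 17.3 to 41.03 in sets 1 to 4.

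This split was chosen after the values had been seen. How many of all genes lay apart between these sets was not counted, and some of the 13 classes had 1 set on a side. In CA1 pyramidal nuclei the ratio of sets 5 and 6 to sets 2 to 4 was 2.68 (2.46 to 2.92) for Nnat, a size reached upward by 1 of 6 members and, at a factor of 2, by 8.37% of the 9218 genes compared. Peg3 had a ratio of 0.955 (0.855 to 1.06) there, Ube3a 0.937, Snrpn 0.814, Grb10 0.697 and Impact 1.30. CA1 nuclei of sets 5 and 6 formed cluster 1 and those of sets 2 to 4 cluster 3, and sets 5 and 6 were shallower. The neuropeptide genes Cck, Vgf and Scg2 moved the same way, at 2.96-fold, 3.20-fold and 2.41-fold. The part of depth in this difference was not tested. Impact also lay higher in sets 5 and 6 in 9 of 13 classes, in some of them narrowly. In CA1 pyramidal nuclei its lowest value in sets 5 and 6 was 110 CPM, against a highest of 107 in sets 1 to 4.

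**Figure D4:**
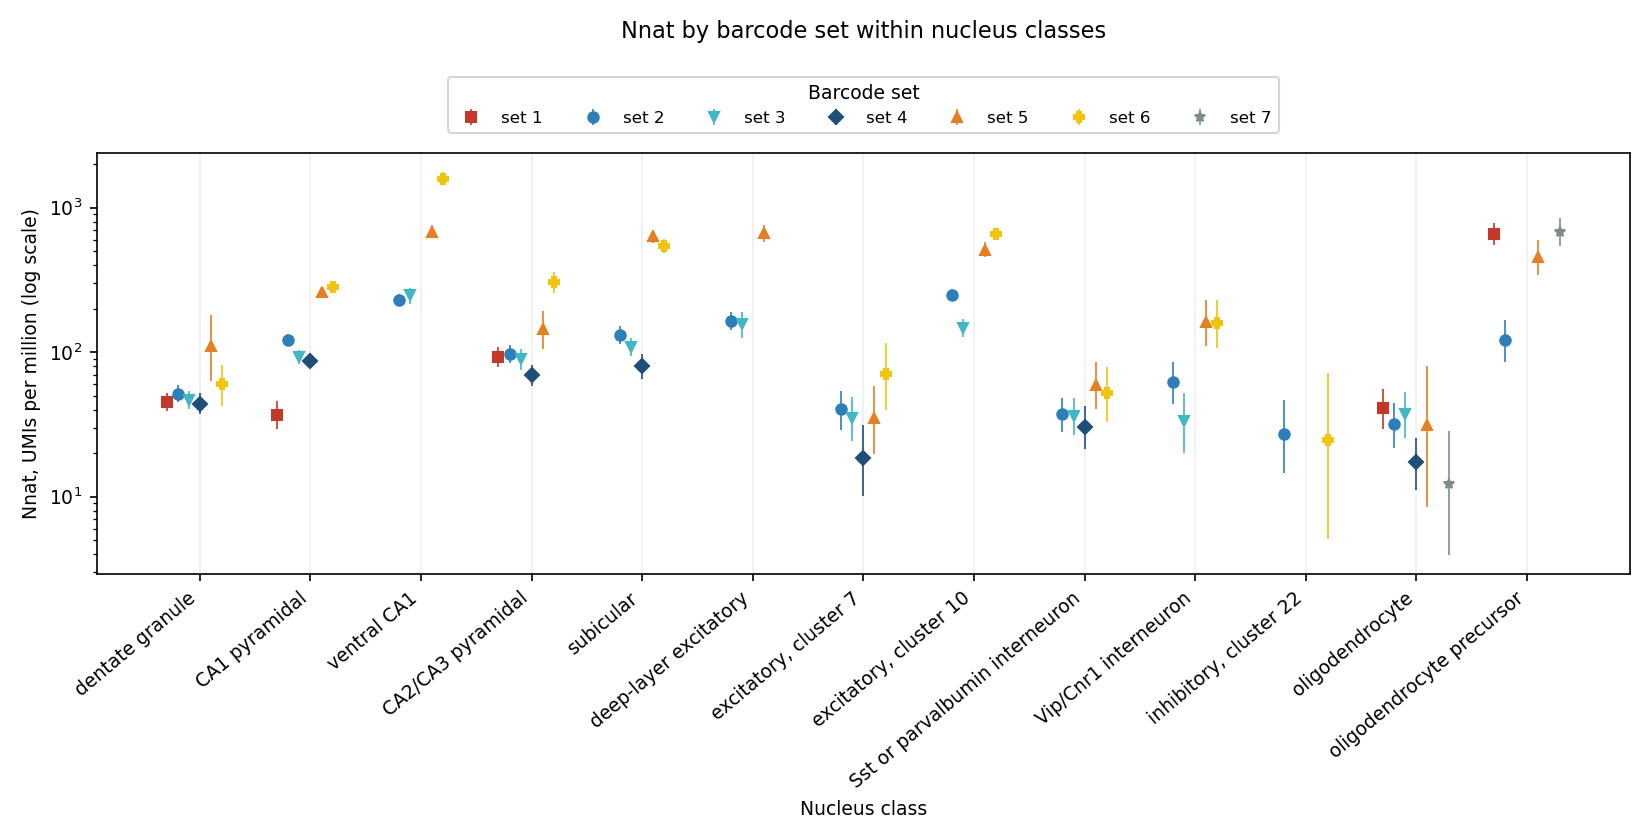
Nnat in CPM (log axis) by nucleus class, with 1 point per barcode set of at least 50 nuclei and exact 95% Poisson intervals. Sets 5 and 6 (triangles pointing up and plus signs) lie at 259 and 285 in CA1 pyramidal nuclei, above the 37.0 to 122 of sets 1 to 4, whereas the sets overlap in oligodendrocytes.

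Ndn was higher in set 1 than in every other set, in each of the 7 classes with set 1 and another set. How many of all genes had this pattern was not counted, and inhibitory cluster 17 had 1 other set. Oligodendrocytes had 70.8 CPM (55.1 to 89.6) in set 1 and 0 to 23.4 in the other 5 sets. Microglia had 120 against 5.78 to 35.9, precursors 56.2 against 0 to 6.55, and inhibitory cluster 17 had 68.9 against 7.09. Dentate granule nuclei had 33.2 against 3.51 to 17.9 and CA1 pyramidal nuclei 24.8 against 4.19 to 8.61. CA2/CA3 was nearest, with 15.6 against 1.98 to 12.6.

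In oligodendrocytes Ndn was 7.10-fold higher (4.63 to 11.1) in set 1 than in sets 2 to 4, the only one of 7 members past a factor of 2, where 8.34% of the 5898 genes compared were. Of the 615 nuclei of cluster 9, an oligodendrocyte cluster, 604 came from set 1. Oxt and Avp, which encode the peptides oxytocin and vasopressin and are made by few hypothalamic neurons, moved with Ndn. Oligodendrocytes of set 1 had 39.0 and 24.6 CPM of Oxt and Avp, and those of the other sets had none. Both genes were higher in set 1 in 7 of 7 classes. Their part in the Ndn values was not tested. Without set 1 the highest Ndn level of any class was 38.5.

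**Figure D5:**
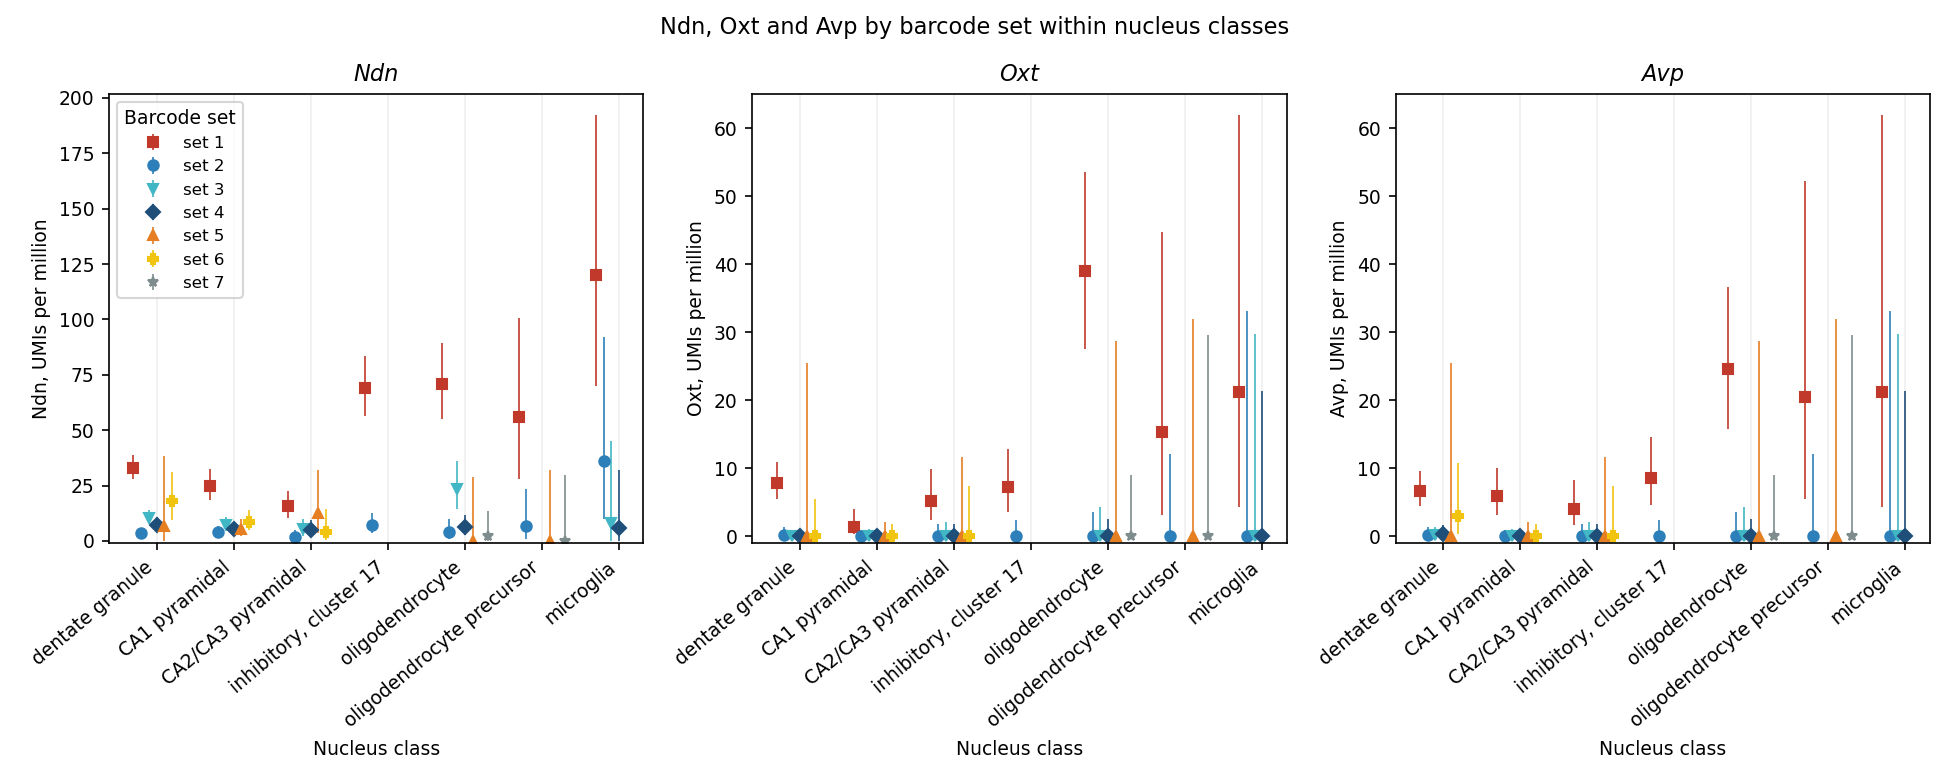
Ndn, Oxt and Avp in CPM by nucleus class, with 1 point per barcode set of at least 50 nuclei and exact 95% Poisson intervals. Set 1 (red squares) is the highest set in all 7 classes for each gene, for Ndn at 70.8 in oligodendrocytes and 120 in microglia.

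Plagl1 in oligodendrocytes was also highest in set 1, at 102 CPM, and ran from 15.6 to 66.4 in the other 5 sets. Set 1 was 1.89-fold above sets 2 to 4 (1.46 to 2.43). In inhibitory cluster 17 Plagl1 had 51.2 in set 1 and 10.3 in set 2. Within every set of at least 50 oligodendrocytes except set 5, where 2 UMIs gave 15.6, the Plagl1 level was above 30. Snrpn stood the other way: it was lowest in set 1 in 6 of 7 classes, for example 103 in CA1 pyramidal nuclei against a highest value of 196 in set 3. In dentate granule nuclei the gap was narrow, 76.6 in set 1 against a lowest value of 78.0 elsewhere. The share of all genes lowest in set 1 was not counted.

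Other imprinted genes were read from a list of 51, of which 41 were in the table; Meg3, Rian, Mirg, H19, Kcnq1ot1, Airn, Zim3, Zfp264, Snhg14 and Peg13 were not analysed here. Between neurons and non-neuronal nuclei, 12 of the 28 with enough UMIs were at least 2-fold higher and 4 lower, with a median log2 ratio of 0.54. Of all genes compared, 19.4% were higher and 19.4% lower. The highest ratios were those of Magel2, at 30.2 on 1 non-neuronal UMI (5.39 to 1198), Calcr at 14.8, also on 1 UMI (2.63 to 589), Atp10a at 9.70, Zdbf2 at 8.95 and Usp29 at 8.19. Usp29, the neighbour of Peg3, was thus higher in neurons as Peg3 was. The lowest were Ddc at 0.0561, Inpp5f at 0.262, Cobl at 0.290, Zrsr1 at 0.477 and Sgce at 0.549. Ddc is the neighbour of Grb10, and the pair lay on opposite sides of 1.

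Between excitatory and inhibitory neurons, 3 of 26 other imprinted genes were at least 2-fold higher and 6 lower, with a median log2 ratio of -0.42. Of all genes compared, 7.05% were higher and 7.91% lower. Cobl at 4.10, Kcnk9 at 2.81, Rasgrf1 at 2.23, Atp10a at 1.34 and Ppp1r9a at 1.23 were highest. Ano1 was lowest at 0.00749, with 385 CPM in inhibitory cluster 17. Magel2 had 0.0630, Zim1 0.219, Usp29 0.220 and Nap1l5 0.394. Within set 1, 15 of 27 were at least 2-fold higher in cluster 4 and 1 was lower, Ano1. Of all genes compared there, 9.52% were higher and 6.51% lower.

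Some neighbours of a member in the genome had the same leading classes and some did not. Usp29 had 1256 CPM in cluster 4 and 1241 in inhibitory cluster 17, and Zim1, next to Peg3, had 67.3 and 25.3 there. Magel2, next to Ndn, had 36.1 and 26.7 in the same 2 classes. Blcap, whose gene surrounds Nnat, was highest in astrocytes at 63.1 and next in cluster 4 at 49.2, and of 9024 genes it was the one whose profile over the 19 classes was most like that of Nnat (Pearson r of log2(CPM + 1) of 0.84). Blcap and Nnat overlap on opposite strands, and the part of shared reads in this likeness was not tested.

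Partners and paralogs of the members were read in the same way. Snrpb, which encodes SmB and SmB′, had a neuron to non-neuronal ratio of 0.826 (0.721 to 0.951), where its paralog Snrpn had 4.46. Dlk2, the paralog of Dlk1, had 4.52 and was led by excitatory cluster 7 at 65.0 rather than by cluster 4. The Notch receptors were higher outside neurons, with ratios of 0.0649 for Notch1 and 0.344 for Notch2. Maged1, a MAGE gene like Ndn and Magel2, had 1.43 and was highest in cluster 4 at 59.7.

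The insulin and IGF1 receptor genes, whose products Grb10 binds, were lower in neurons, with ratios of 0.485 for Insr and 0.550 for Igf1r. Grb14, the paralog of Grb10, had a ratio of 0.209 and was highest in oligodendrocytes at 528 CPM, where Grb10 had 2.90. Grb7 had 32 UMIs in all and no class above 2.69. The Plagl1 paralogs Plag1 and Plagl2 had ratios of 0.993 and 0.613, against 0.213 for Plagl1. Eif2ak4, which encodes GCN2, and Gcn1, which encodes its activator, had 1.06 and 1.02, close to the 1.03 of Impact, and Herc2, which encodes a ligase that binds the Ube3a protein, had 1.04. Of the 14 with enough UMIs 2 passed a factor of 2 upward in neurons and 4 downward, and their median log2 ratio was -0.14. Among all genes compared, 19.4% passed it upward and 19.4% downward.

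The profiles of the members over the 19 classes were compared with each other and with other genes as a description, since the classes share libraries and differ in depth. Ube3a and Snrpn had a Pearson r of 0.85, Ube3a and Grb10 0.85, and Snrpn and Grb10 0.75. Peg3 had 0.74 with Ube3a. In these pooled profiles Ndn stood apart from its chromosome 7 neighbours, with -0.36 against Ube3a and -0.26 against Snrpn, but had 0.74 with Impact. Set 1, where Ndn was higher, gave 69 of the 103 Ndn UMIs of oligodendrocytes. The profile of Ndn without set 1 was not tested.

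The gene most like each member among 9024 genes was also recorded. Ube3a was most like Cstf2 (0.95), and Snrpn most like Apex2 (0.92), Pak3 and Fam189b. Peg3 was most like Rpgr (0.93), Sclt1 and Cplane1, and Grb10 most like Inha (0.93), Rgs17 and Ube2o. Ndn was most like Tma7 (0.93), Fkbp3 and Atp6v0c, and Impact most like Nudcd2 (0.91), Coq5 and Sfxn4. Nnat had Gpc5 and Colgalt2 after Blcap. Plagl1 had no close match, with Ttll5 at 0.70 ahead of Nectin1 and App.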

How the data were processed

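The authors deposited 1 table of raw UMI counts per gene and barcode; per the submitters' processing notes it was made with Cell Ranger 4.0.0 on mm10 (GRCm38). The treatment of introns and of strand is not given in the sources used here. Barcodes needed 500 UMIs, 300 genes and a mitochondrial share below 5%. Doublets were called per barcode set with Scrublet in scanpy 1.11.5 (expected rate 0.05) and left out. Counts scaled to 10000 per nucleus were clustered without imprinted genes, partners and mitochondrial genes (30 components, 15 neighbours, Leiden resolution 1, leidenalg 0.10.2), which gave 31 clusters. A cluster was named where marker lists and leading genes agreed; the naming rule, with its 20 CPM added before folds, was set after the clusters had been seen, and clusters under 50 nuclei stayed unnamed. The members and lists were chosen with earlier results of these data known.

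UMIs were summed per class and divided by all UMIs of the class (CPM). Levels have exact Poisson and shares exact binomial 95% intervals (SciPy 1.17.1), ratios the exact interval for 2 Poisson counts, all for counting error only; code was tested on simulated data. With 1 sample no p-value was computed. A side with 0 UMIs was set to 3 in a ratio. All members were named, as were partners, paralogs, the 5 highest and 5 lowest other imprinted genes per ratio, and up to 3 most similar genes for members with at least 1000 UMIs (for Ube3a only the first is reported here); hypothalamic, neuropeptide and cluster 4 group values were chosen after being seen. Gene positions are from GENCODE, promoter windows from RefSeq (GRCm38.p6, without chromosome 18, which holds Impact). Sets with 0 UMIs on a side were counted apart in counts of sets. Alternatives covered scaling, thinning, filters, doublets, naming, resolution and each set left out.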

Additional observations from a re-analysis of the deposited data

Results flagged for a closer look

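Combinations of a member and a class with 4 to 10 barcode sets were checked where those sets together held at least 100 UMIs of the member. In 5 of these 67 combinations, 1 set lay far from the others by Dixon's criterion at the 95% level. Chance gives about 1 in 20. Barcode sets are not labelled samples, so these are set values and not differences between animals.

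Ndn in oligodendrocytes was 70.8 CPM in set 1, with the nearest set at 23.4. Ndn in CA1 pyramidal nuclei was 24.8 in set 1, with the nearest at 8.61. Both belong to the higher Ndn level in set 1 that is described with its Oxt and Avp values in the report.

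Nnat in CA2/CA3 pyramidal nuclei was 304 in set 6, with the nearest set, set 5, at 145. Nnat in dentate granule nuclei was 111 in set 5, with the nearest, set 6, at 59.8. Impact in ventral CA1 was 155 in set 5, with the nearest at 88.3.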

How the results depend on the processing

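The members' median log2 ratio of neurons to non-neuronal nuclei (1.91) stayed above that of all genes in each alternative run, but its size moved by more than its spread over sets in 4. It was 3.81 for mean UMIs per nucleus without scaling, where the median of all genes was 1.73. It was 1.42 with nuclei thinned to 1000 UMIs, 0.67 with cluster 4 left out and 1.25 as the median over sets. Leaving out each set in turn gave 1.63 to 1.94. For excitatory to inhibitory neurons (-0.68) the median was -1.31 at Leiden resolution 0.5 and -1.09 without sets 2 and 5, where the doublet caller marked few nuclei; leaving out each set gave -1.04 (without set 2) to -0.42 (without set 1). The cause of these shifts was not tested. At resolution 0.5, 6 members were at least 2-fold lower in excitatory nuclei in place of 4, and without sets 2 and 5 the number was 5. The share of all genes was not counted in these alternatives. The number of members highest in cluster 4 was 7, and 2 to 7 with each set left out, 2 without set 1. Dlk1 reversed between excitatory and inhibitory neurons without set 1: the log2 ratio of -1.33 ran from -1.72 to 0.45 with each set left out. Of the members' single ratios, 192 of 197 alternatives between neurons and non-neuronal nuclei and 181 of 185 between neuron kinds kept their sign. The alternatives without cluster 4 and without sets 2 and 5 were added after seeing the data. No paired analysis was possible because all nuclei count as 1 sample of a single group. Depth limits Asb4, Dlk1 and Plagl1 most: classes with few nuclei allow several CPM at a count of 0.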
